A study of Mus musculus with 5 samples.

Results

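Ribosome-bound RNA of the midbrain was examined for 10 genes of cytotoxic T cells, namely the T cell receptor genes Cd3d, Cd3e, Cd3g and Trbc2, the co-receptor genes Cd8a and Cd8b1, the cytotoxic genes Gzmb and Nkg7, the chemokine receptor gene Cxcr6 and the chemokine gene Ccl5. The members were picked by symbol after the difference between the groups was known, with Ccl5 and Cd8a noted as strong increases, so the difference between Esrrg Flox and Esrrg WT is described for them and not tested. All 10 were among the 53700 gene IDs of the table, and all 10 had counts in both groups. The libraries came from C57BL/6 mice aged 4 months that carried a Cre-dependent EGFP-tagged ribosomal protein, L10a, and all mice, controls included, received an AAV:THCre virus in the midbrain. There were 3 Esrrg WT libraries (replicates 2, 3 and 4), from mice with the tag and without a floxed Esrrg, and 2 Esrrg Flox libraries (replicates 2 and 4), in which Cre removes exon 2 of Esrrg. Each library was a pool of dissected midbrains, taken 1 month after the virus injection. The tagged ribosomes were pulled down by BAC-TRAP (translating ribosome affinity purification), and because the Th promoter drives Cre, the tag was directed to dopaminergic (DAergic) neurons and not to lymphocytes.

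Cytotoxic T lymphocytes recognise peptides on MHC class I molecules through a T cell receptor, whose alpha and beta chains bind antigen and whose CD3 chains carry the signal into the cell. CD8, made of an alpha and a beta chain, binds MHC class I beside the receptor, and killing depends on granules that hold granzymes and perforin. Ccl5 (RANTES) attracts T cells and other leukocytes through chemokine receptors such as Ccr1 and Ccr3, and Cxcr6 is the receptor of Cxcl16 and is found on tissue-resident CD8+ cells. The healthy brain holds few T cells, and CD8+ T cells are known to enter the midbrain in models of Parkinson's disease. Not all of these genes belong to 1 cell type alone, since natural killer (NK) cells also express Ccl5, Gzmb and Nkg7, and activated microglia can express Ccl5.

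Promoters of 7 of the 10 members (Cd3d, Cd3e, Cd3g, Cd8a, Cxcr6, Gzmb and Nkg7) were matched by symbol in RefSeq sequences of GRCm38.p6. The 250 bases before each start were searched on both strands for TGTGGT, the motif of Runx factors, which take part in the CD8+ cytotoxic programme. It was found in 3 of the 7 (Nkg7, Gzmb and Cxcr6) and in 4614 of all 32851 promoters. AGGTGTGA, the motif of T-box factors, was found in Nkg7 alone among the 7 and in 1.12% of all promoters. None of the 7 held AAGGTCA, the core of the site bound by estrogen-related receptors (4.08% of all promoters), the NF-kappaB motif (0.356%) or the interferon-stimulated response element core (2.98%). The promoters of the 3 members with a Runx motif are shown because they are the only ones of the 7 in which any of the 5 motifs was found. They lie at chr7:43436888-43437137 (plus strand, Nkg7), chr14:56262335-56262584 (minus strand, Gzmb) and chr9:123806227-123806476 (plus strand, Cxcr6), and capitals mark the motifs, with ACCACA the Runx motif on the other strand.
Nkg7: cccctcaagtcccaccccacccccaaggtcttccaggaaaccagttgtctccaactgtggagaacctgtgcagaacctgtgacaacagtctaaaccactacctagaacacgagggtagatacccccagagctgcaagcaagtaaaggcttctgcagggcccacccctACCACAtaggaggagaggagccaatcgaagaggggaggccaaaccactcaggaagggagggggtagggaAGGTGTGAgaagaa
Gzmb: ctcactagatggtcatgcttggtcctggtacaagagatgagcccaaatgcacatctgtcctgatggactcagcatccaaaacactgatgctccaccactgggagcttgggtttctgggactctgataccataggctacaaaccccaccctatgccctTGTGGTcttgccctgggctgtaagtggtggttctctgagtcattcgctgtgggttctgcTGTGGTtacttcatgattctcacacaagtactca
Cxcr6: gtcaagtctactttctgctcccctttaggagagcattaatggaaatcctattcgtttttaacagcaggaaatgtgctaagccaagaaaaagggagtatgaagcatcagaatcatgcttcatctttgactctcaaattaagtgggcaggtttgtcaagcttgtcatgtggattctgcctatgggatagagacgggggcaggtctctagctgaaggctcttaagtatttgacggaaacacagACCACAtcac
In Nkg7 the T-box motif began 14 bases before the start and the Runx motif 83 bases before it. Gzmb held the Runx motif at both 93 and 34 bases before the start, and Cxcr6 at 10.

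The libraries held between 20635855 and 23105058 assigned counts, so that 3 counts, the level that a count of 0 still allows, corresponded to 0.130 to 0.145 CPM (counts scaled to library size), for counting error only. Esrrg itself (ENSMUSG00000026610.14) had 1763, 1643 and 1726 normalized counts in WT replicates 2, 3 and 4, and 1504 and 1170.1 in Flox replicates 2 and 4. The log2 fold change was -0.35 (SE 0.13, DESeq2 adjusted p = 0.0753), and reads outside exon 2 still count toward the gene. Th, which marks DAergic neurons, had between 9665 and 13336 counts in every library. Flox replicate 4 stood apart from the other libraries, since leaving it out reduced the genes called in the whole table from 500 to 48. Values for the members are therefore given for each library. These libraries were pull-downs from pooled midbrains. More cells of a type, more RNA per cell and more RNA carried over from cells without the tag cannot be told apart.

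Each member was higher in both Flox libraries than in all WT libraries (10 of 10, against 14.9% of the 29407 genes with a count and 19.9% of those with an adjusted p). The members were chosen with this contrast known, so nothing is read from that share. The gene with the largest difference was Cd8a (ENSMUSG00000053977.14, chromosome 6), which encodes the alpha chain of CD8. It had 8.43, 7.13 and 1.92 normalized counts in WT replicates 2, 3 and 4, and 39.4 and 90.5 in Flox replicates 2 and 4. The groups did not overlap, and the lower Flox library was above the highest WT library. The mean was 11.1-fold higher in Flox (WT 5.83 ± 3.44, SD over 3 libraries, against 64.9 ± 36.1, SD over 2 Flox libraries). The log2 fold change was 3.49 (SE 0.64), and in the whole table only 2 genes with an adjusted p were higher. Cd8b1 (ENSMUSG00000053044.9), the neighbouring gene for the beta chain of CD8, had 8.43, 1.02 and 0.961 in WT and 18.3 and 48.7 in Flox. Most of its WT counts were in replicate 2, and its log2 fold change was 3.29 (SE 0.90).

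**Figure D1:**
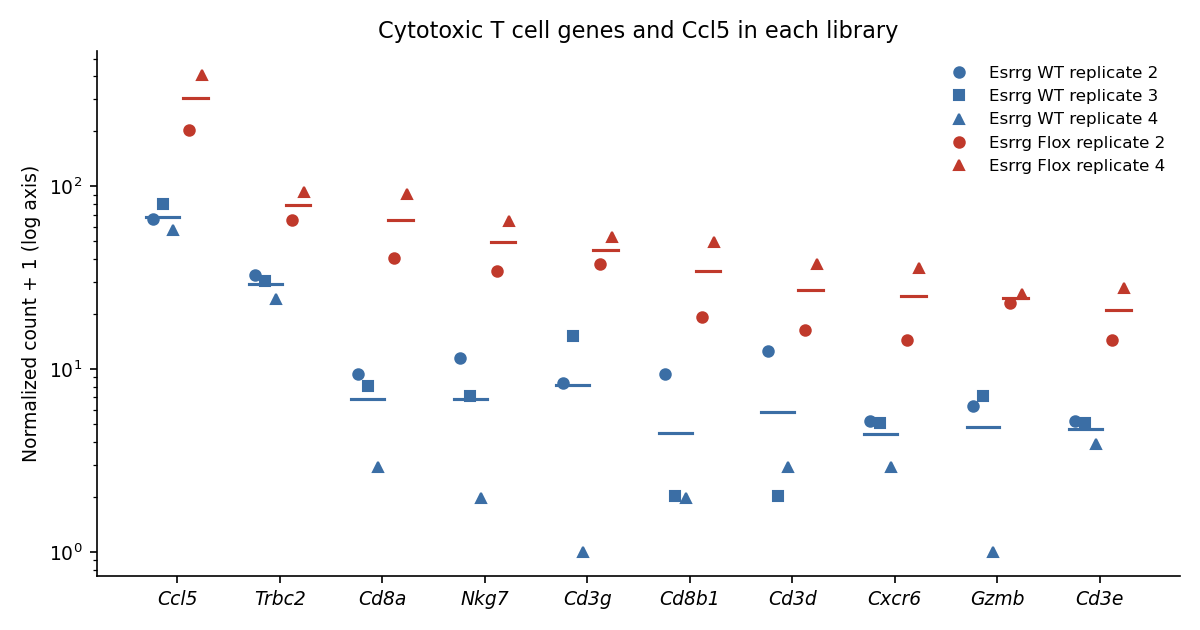
Normalized count plus 1 (log axis) of the 10 genes in each library, with blue symbols for Esrrg WT, red symbols for Esrrg Flox and horizontal lines at the group means. In every gene both Flox libraries lie above all WT libraries, Flox replicate 4 is above Flox replicate 2, and Ccl5 has the highest counts (56.7 to 408.6).

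The CD3 genes, which lie together on chromosome 9, were low in WT. Cd3g (ENSMUSG00000002033.15, the gamma chain) had 7.37 and 14.3 normalized counts in WT replicates 2 and 3, no count in WT replicate 4, and 36.5 and 51.7 in Flox. The 3 WT libraries thus ran from 0 to 14.3, a wide spread for its log2 fold change of 2.61 (SE 1.54). Cd3d (ENSMUSG00000032094.9, the delta chain) had 11.6, 1.02 and 1.92 in WT and 15.4 and 36.8 in Flox. This was the narrowest gap between the groups in the CD3 genes, from 11.6 in WT replicate 2 to 15.4 in Flox replicate 2, and the log2 fold change was 2.44 (SE 0.92). Cd3e (ENSMUSG00000032093.8, the epsilon chain) had 4.21, 4.08 and 2.88 in WT and 13.4 and 26.8 in Flox (log2 fold change 2.44, SE 0.86), so its WT libraries differed little.

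Trbc2 (ENSMUSG00000076498.3), a constant region of the T cell receptor beta chain, had 31.6, 29.6 and 23.1 normalized counts in WT and 64.4 and 92.5 in Flox. It was the member with the smallest log2 fold change (1.48, SE 0.39) and with the second highest counts in WT, where the libraries lay close together. Its paralog Trbc1 is nearly identical, so single counts of the 2 genes are uncertain, and their sums were 33.7, 30.6 and 23.1 in WT and 68.2 and 111.3 in Flox. The sum kept the separation of the groups. In contrast, Trac, the constant region of the alpha chain, had 71, 75 and 100 counts in WT and 87 and 103 in Flox (a log2 fold change of 0.17 with an SE of 0.29, adjusted p by DESeq2 = 0.830), so that the groups overlapped.

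Among the cytotoxic genes, Nkg7 (ENSMUSG00000004612.10), a granule membrane protein of cytotoxic lymphocytes, had 10.5, 6.11 and 0.961 normalized counts in WT and 33.6 and 63.6 in Flox (log2 fold change 3.07, SE 0.70). The groups did not overlap and the WT libraries differed widely. Gzmb (ENSMUSG00000015437.6), the protease granzyme B, had 5.27 and 6.11 in WT replicates 2 and 3, no count in WT replicate 4, and 22.1 and 24.9 in Flox (log2 fold change 2.64, SE 0.90). It was the member in which the Flox libraries were closest to each other. Cxcr6 (ENSMUSG00000048521.9) had 4.21, 4.08 and 1.92 in WT and 13.4 and 34.8 in Flox (log2 fold change 2.83, SE 0.87).

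Ccl5 (ENSMUSG00000035042.3, chromosome 11) had 65.3, 79.5 and 56.7 normalized counts in WT and 201.7 and 408.6 in Flox. These were the highest counts of the 10 genes, with a narrow spread in WT and a difference of 2.03-fold between the Flox libraries (95% interval 1.71 to 2.40, counting error only). The mean was 4.54-fold higher in Flox (WT 67.2 ± 11.5, SD over 3 libraries, against 305 ± 146, SD over 2 Flox libraries), with a log2 fold change of 2.18 (SE 0.31). Ccl5 alone made up 41.6% to 62.8% of the members' counts in the WT libraries and 44.0% and 46.5% in the Flox libraries, so the ranges overlapped.

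The call rule of the study was an adjusted p under 0.05 in DESeq2 and a fold change of at least 1.5. By this rule 500 of 15724 genes (3.18%) were called, of which 222 (1.41% of all) were lower and 278 (1.77%) higher. The share called higher was 3.05% among the 5277 genes whose mean lay within the range of the members (10.3 to 162 normalized counts). Of the members, 5 were called higher (Cd8a, Cd8b1, Nkg7, Ccl5 and Trbc2), Cd3d and Cd3g were not called, and Cd3e, Gzmb and Cxcr6 had no adjusted p because DESeq2 left them out at low counts. The median log2 fold change of the 10 members was 2.63, against -0.0063 over all genes with an adjusted p. The members were chosen on this contrast, so nothing is read from these counts.

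Levels were also compared between genes, on the TPM scale, which corrects for the length of the gene model and for library size. In Flox, Ccl5 was at 42.6 ± 18.5 TPM (SD, n = 2), Trbc2 at 15.3 ± 3.14, Nkg7 at 7.13 ± 2.79 and Cd8b1 at 3.01 ± 1.82. Neighbours in this order did not overlap between libraries down to Cd8b1. Below it came Cd8a (2.39 ± 1.23 TPM), Gzmb (2.21 ± 0.0761), Cd3d (1.92 ± 1.04), Cd3g (1.82 ± 0.356) and Cxcr6 (1.67 ± 0.977), whose order lay within the spread of the 2 libraries. Cd3e was lowest (0.661 ± 0.282 TPM), and its higher library (0.861) lay below the lower library of Cxcr6 (0.976). In WT, Ccl5 (10.3 ± 1.96 TPM, SD, n = 3) and Trbc2 (5.97 ± 1.06) were again the highest, and the mean of each other member was under 1 TPM.

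The size of the fold changes depended on single libraries. Over the 10 alternatives that gave their own fold change, each member stayed higher in Flox. In every member both Flox libraries lay above all WT libraries, so leaving out a library could not turn the direction. The direction is therefore not read as a result. Without Flox replicate 4, Cd8a was at 2.76, Cd8b1 at 2.41, Cd3d at 1.67, Cd3e at 1.85, Cxcr6 at 1.98 and Ccl5 at 1.58, each a fold change more than 1.5 times smaller than with all libraries. Without WT replicate 4, the library with the fewest counts of these genes, Cd3g was at 2.02 and Gzmb at 2.04. Without WT replicate 2, which held most WT counts of Cd8b1 and Cd3d, Cd8b1 was at 5.08, Cd3d at 4.14 and Nkg7 at 3.80. Without WT replicate 3, Cd3g was at 3.59.

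**Figure D2:**
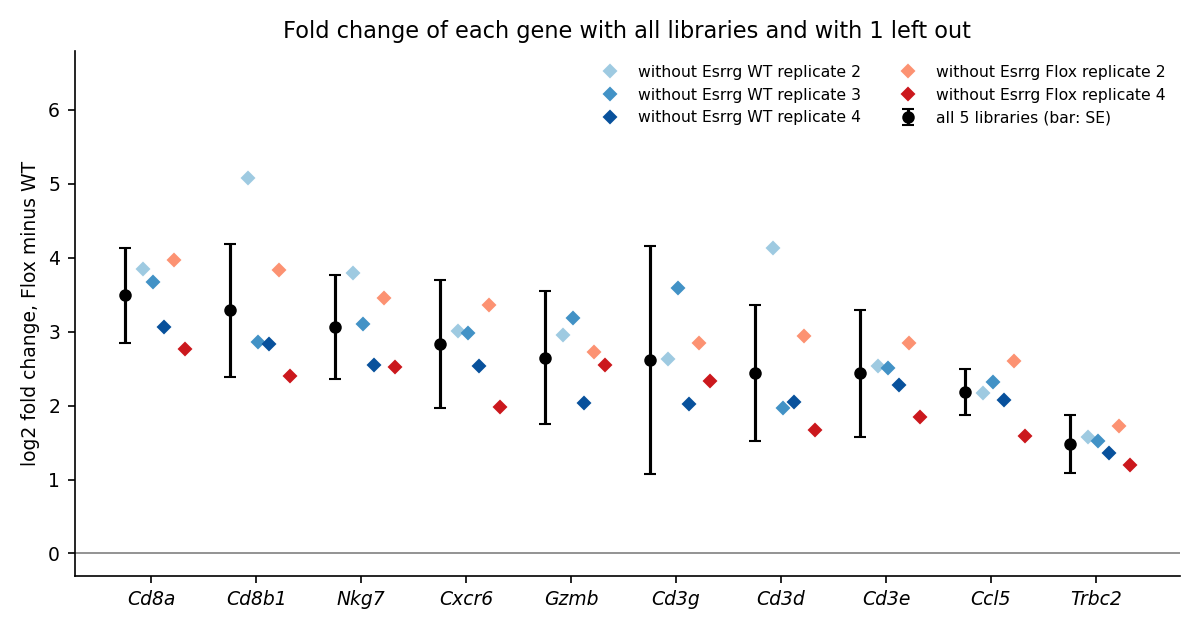
Log2 fold change of each gene (Flox minus WT) with all 5 libraries (black, bars are standard errors) and with 1 library left out (diamonds). All values lie above 0, which follows from the separation of the groups in every member. The lowest for most genes are those without Flox replicate 4, and Cd8b1 and Cd3d are highest without WT replicate 2 (5.08 and 4.14).

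The summed counts of the 10 genes were 149, 150 and 94 in WT replicates 2, 3 and 4, and 477 and 884 in Flox replicates 2 and 4. In CPM these were 7.22 (95% Poisson interval 6.11 to 8.48), 7.11 (6.02 to 8.34) and 4.07 (3.29 to 4.98) in WT. In Flox they were 20.9 (19.0 to 22.8) and 38.7 (36.2 to 41.3). The intervals cover counting error only. WT replicate 4 lay below the other WT libraries, and the Flox libraries differed from each other, beyond counting error. The mean was 4.85-fold higher in Flox. Between the Flox libraries, the normalized counts of the members were 1.92-fold higher in replicate 4 (95% interval 1.71 to 2.15, counting error only). Single members ran from 1.12-fold for Gzmb (0.613 to 2.07) to 2.67-fold for Cd8b1 (1.54 to 4.80), and the intervals of Gzmb and Cd3g (0.914 to 2.21) included 1.

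Markers of other cells moved with these genes. Of 14 microglial markers, 9 were called higher in DESeq2 (1.77% of all genes) and 12 had both Flox libraries above all WT libraries (14.9% of all genes), with summed normalized counts of 1803 to 3154 in WT and 5369 to 11155 in Flox. Microglial Tmem119 was called higher (82 to 113 counts in WT, 158 and 269 in Flox), whereas P2ry12 was not (35 to 77 and 73 in each Flox library). As in the T cell genes, WT replicate 4 was lowest and Flox replicate 4 highest in the microglial sum, which differed 2.08-fold between the Flox libraries (2.01 to 2.15). Of 10 genes shared by leukocytes 6 were called higher, among them Ptprc, the leukocyte antigen CD45 (13 to 21 counts in WT, 36 and 97 in Flox), and Ptprcap was at 0 in every library. Their summed normalized counts were 1964 to 2354 in WT and 2884 to 4194 in Flox, but Coro1a, which was not called, made up 50.9% to 77.5% of them. Endothelial markers (3 of 8 called higher) summed to 111 to 265 in WT and 259 and 741 in Flox, so that Flox replicate 2 overlapped the WT libraries, and Cldn5 had 37 to 87 and then 92 and 242 counts. Monocyte markers (3 of 6 called higher) summed to 99.9 to 146 in WT and 221 and 286 in Flox. With edgeR, 5 microglial, 2 leukocyte, 1 monocyte and 0 endothelial markers were called (5 endothelial markers at an unadjusted p under 0.05). Without Flox replicate 4 the Flox group held 1 library, and no call in the 4 cell lists remained. In that fit DESeq2 gave no monocyte or endothelial marker an adjusted p, so these could not be called. Without WT replicate 4 it called 5 microglial markers and 0 of the other 3 lists (9, 4 and 2 at an unadjusted p under 0.05 for leukocytes, monocytes and endothelium). There DESeq2 gave an adjusted p to 3 leukocyte markers and to no monocyte or endothelial marker. Without WT replicate 2 it called 2 microglial, 1 leukocyte, 0 monocyte and 1 endothelial markers, and the monocyte count was also 0 without Flox replicate 2 (4 at an unadjusted p under 0.05 in both). The part of these cells in the result was not tested.

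Other blood cells were also examined. None of the 8 B cell markers was called in DESeq2 with all libraries or in edgeR with its filter (2 at an unadjusted p under 0.05 in each), and 1 was called without Flox replicate 4, with sums of 1100.1 to 1661 in WT and 1771 and 1774 in Flox. Of its defining genes, Ms4a1 had no count in WT and 5 and 1 in Flox, and Cd79a had 1 to 9 in WT and 15 and 12 in Flox. None of the 8 neutrophil markers had an adjusted p in DESeq2 or passed edgeR's filter, so none could be called there. They had 5 to 9 counts in all per library, of which S100a8 had 1 to 4. Without the filter edgeR called 0 of them, and 0 had an unadjusted p under 0.05 in that fit or in DESeq2. None of the 5 red blood cell genes was called in DESeq2 with all libraries or in edgeR with its filter (0 and 2 at an unadjusted p under 0.05), but 3 were called with edgeR without its filter and 3 with the replicate block, all higher, and 1 without WT replicate 3. They were lowest in WT replicate 4 (851 normalized counts, against 1945 to 3292 in the other 4 libraries) and Hbb-bs had 377 to 1024 counts in WT and 1541 and 1000 in Flox. DAergic markers summed to 50585 to 60350 in WT and 51566 and 54312 in Flox, and of these 11 genes Kcnj6 was called lower (a log2 fold change of -0.99 with an SE of 0.33, adjusted p by DESeq2 = 0.0419). The share called lower over all genes with an adjusted p was 1.41%. With edgeR and its filter, with the replicate block, without independent filtering and with any 1 library left out, 0 of the 11 were called (1 to 4 at an unadjusted p under 0.05).

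**Figure D3:**
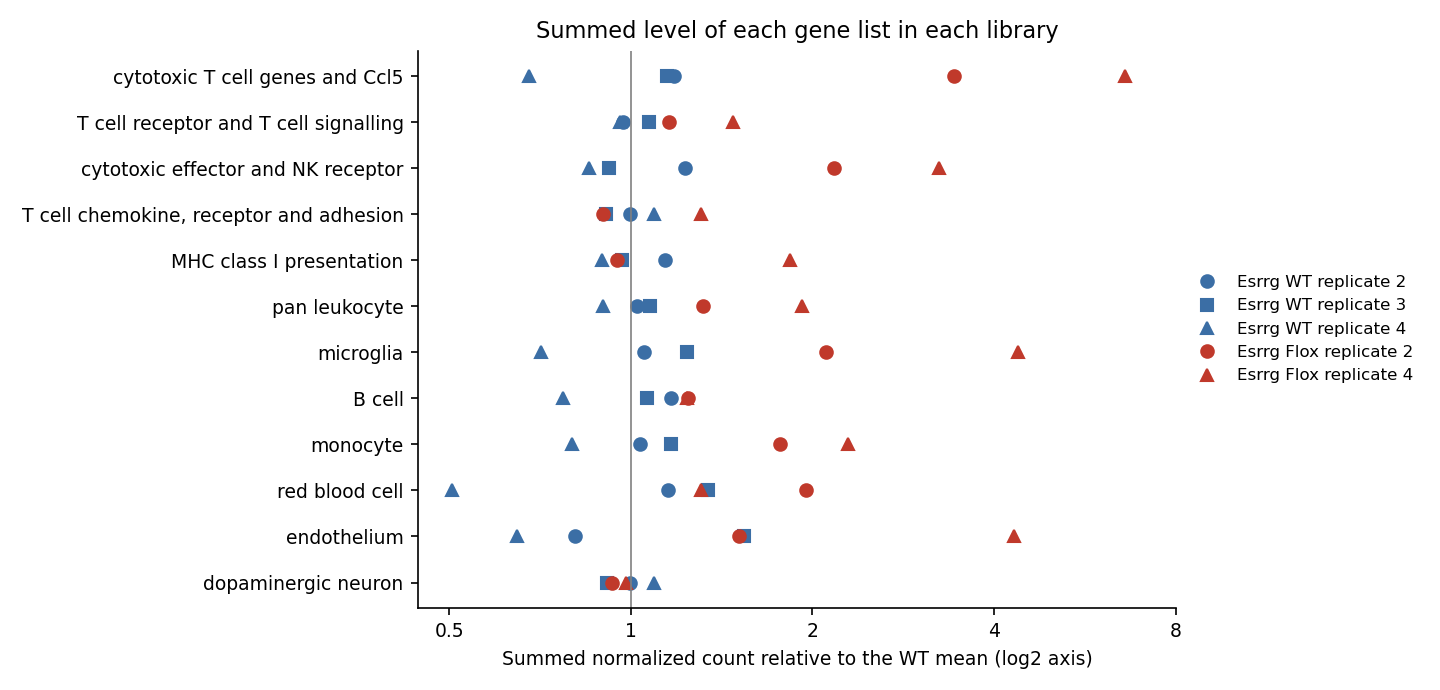
Summed normalized count of each gene list in each library, relative to the mean of the 3 WT libraries (log2 axis), with blue symbols for Esrrg WT and red symbols for Esrrg Flox. Both Flox libraries lie above all WT libraries in the cytotoxic T cell, T cell receptor, cytotoxic effector, pan leukocyte, microglial, B cell and monocyte lists, and the DAergic list overlaps between the groups. The neutrophil list is left out because it had 5 to 9 counts per library.

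Within a library, the T cell genes were then set against microglial counts. The members were chosen on the contrast between the groups, so the ratios are described, and a gap between the groups is not read as a result. The 9 members other than Ccl5 had 34.2, 23.3 and 18.6 counts per 1000 microglial counts in WT and 47.8 and 42.2 in Flox, so the groups did not overlap and the Flox mean was 1.77-fold higher. Ccl5 had 24.4, 25.2 and 31.4 per 1000 in WT and 37.6 and 36.6 in Flox, a mean 1.37-fold higher, again without overlap. By this measure the Flox libraries lay close together, and Flox replicate 4 was no longer the higher one. Against the counts of the 10 leukocyte genes, the 9 members had 40.9, 31.2 and 17.1 per 1000 in WT and 88.9 and 112 in Flox. Coro1a, which was not called, made up 50.9% to 77.5% of these leukocyte counts, so this ratio was mainly to Coro1a.

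Further genes of T cells came from textbook lists. Of 33 T cell receptor and signalling genes, 3 were called higher in DESeq2 and 0 lower, and 13 had an adjusted p (1.77% of all genes were called higher). These were Pdcd1 (the inhibitory receptor PD-1), Lag3 (an inhibitory receptor that binds MHC class II) and Fyb (a signalling adaptor of T cells and myeloid cells). Pdcd1 had 4, 3 and 1 counts in WT and 16 and 44 in Flox (a log2 fold change of 3.44 with an SE of 0.89, adjusted p by DESeq2 = 0.0043). Lag3 had 89, 118 and 74 counts in WT and 180 and 437 in Flox (1.68 with an SE of 0.35, adjusted p by DESeq2 = 0.00018), and Fyb 7, 14 and 14 in WT and 39 and 77 in Flox (2.28 with an SE of 0.55, adjusted p by DESeq2 = 0.0019). In each the Flox libraries lay above all WT libraries. Lag3 had more counts than any member in every WT library, and which cells it came from was not tested. Over all 33 genes the median log2 fold change was 1.53 and 28 values were above 0. Over the 29407 genes with a count in the whole table the median was 0.024 and 15252 values were above 0. Cd4, the co-receptor of helper T cells, had 7, 11 and 7 counts in WT and 6 and 20 in Flox, so that the groups overlapped (log2 fold change 0.60, SE 0.85, no adjusted p), and the direction turned without Flox replicate 4 (-0.55). The sum of this list was little guide to T cells, since Gata3, Tox and Bcl11b, which neurons also express, held 45.9% to 73.3% of its counts.

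Of 22 further cytotoxic and NK receptor genes, 2 were called higher in DESeq2 and 0 lower, and 4 had an adjusted p. Over the whole table, 1.77% of genes with an adjusted p were called higher. Il2rb, the shared receptor chain for interleukin 2 and interleukin 15 on cytotoxic and NK cells, had 13, 5 and 6 counts in WT and 38 and 63 in Flox (a log2 fold change of 2.61 with an SE of 0.61, adjusted p by DESeq2 = 0.0013). Srgn, the granule proteoglycan serglycin, which myeloid cells also express, had 34, 21 and 15 counts in WT and 55 and 107 in Flox (1.74 with an SE of 0.48, adjusted p by DESeq2 = 0.0084). Both genes had Flox libraries above all WT libraries. Perforin itself (Prf1) had 3, 0 and 0 counts in WT and 11 and 8 in Flox, too few for an adjusted p. The NK receptor gene Ncr1 had no count in WT and 1 and 0 in Flox, at or under the level that a count of 0 allows, and the NK gene Klrb1c had 2 counts in Flox replicate 4 and none elsewhere. The other 2 genes with an adjusted p lay close to 0, and they and Eomes were chosen after their values were seen. Gzmm, granzyme M, had 41, 31 and 47 counts in WT and 52 and 30 in Flox (log2 fold change -0.0025, SE 0.43), and Klrg1, a receptor of effector lymphocytes, was at 0.26 (SE 0.67). Eomes, a T-box factor of cytotoxic cells, had 5, 2 and 4 counts in WT and 3 and 1 in Flox. Over all 22 genes the median log2 fold change was 2.22.

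**Figure D4:**
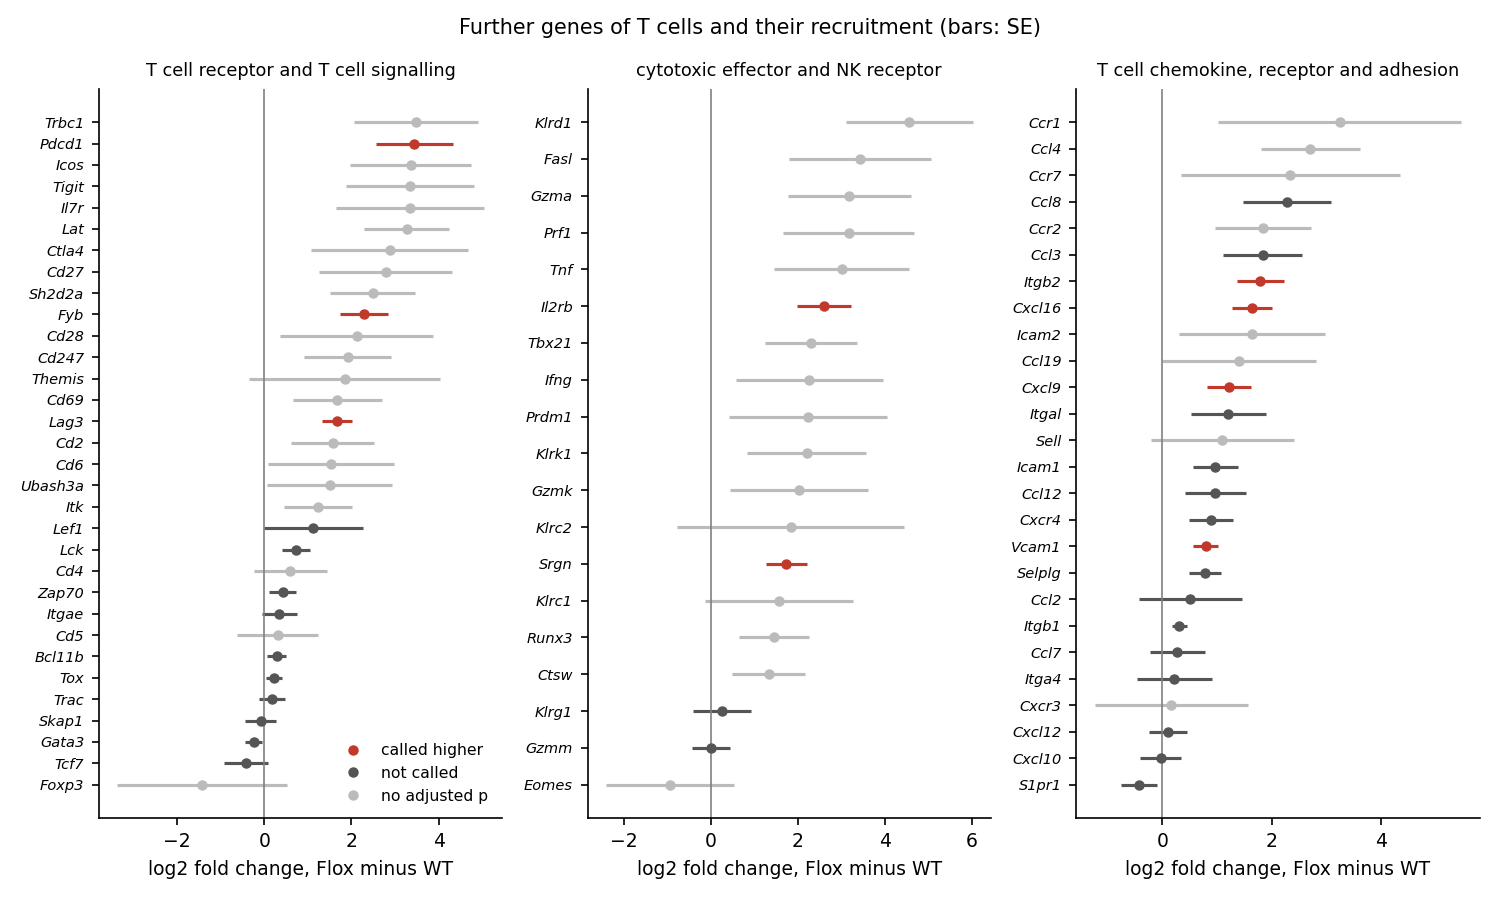
Log2 fold change (Flox minus WT, bars are standard errors) of most of the further T cell, cytotoxic and recruitment genes with more than 3 counts in any library, in red where called higher by DESeq2, dark grey where not called and light grey where no adjusted p was given. Of the genes shown 9 are red, and most of the light grey genes lie above 0 with wide bars. A gene could pass the limit of 3 counts through the Flox libraries alone.

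Ligands and receptors of recruitment differed among themselves. Of 30 chemokine, receptor and adhesion genes, 4 were called higher in DESeq2 and 0 lower, and 19 had an adjusted p. The share called higher over all genes with an adjusted p was 1.77%. Cxcl16, the ligand of Cxcr6, had 66, 76 and 44 counts in WT and 131 and 268 in Flox (a log2 fold change of 1.64 with an SE of 0.36, adjusted p by DESeq2 = 0.00046). Cxcl9, an interferon-gamma-induced ligand of Cxcr3, had 56, 67 and 29 in WT and 94 and 151 in Flox (1.22 with an SE of 0.40, adjusted p by DESeq2 = 0.0321). Its relative Cxcl10 was abundant and overlapped between the groups, with 1455, 1400 and 1363 in WT and 959 and 1873 in Flox. The integrin chain Itgb2, which T cells and myeloid cells share, and Vcam1, an adhesion molecule that binds lymphocyte integrins, were called higher at log2 fold changes of 1.79 (SE 0.43, DESeq2 adjusted p = 0.0018) and 0.80 (SE 0.23, DESeq2 adjusted p = 0.0121). Of the receptors of Ccl5, Ccr1 had at most 1 count in each WT library and 3 and 4 in Flox, and Ccr3 was at 0 in every library. The median log2 fold change over the 29 genes with a count was 1.20.

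The calls of Cxcl16, Cxcl9, Itgb2, Vcam1, Lag3 and Srgn were lost in edgeR's quasi-likelihood test, in which 13 of the recruitment genes had an unadjusted p under 0.05. Pdcd1 was not called with a filter on low counts. Each of the 9 genes called in these 3 lists lost its call in DESeq2 without Flox replicate 4 and also without WT replicate 4, where 0 genes of the lists were called, with 6 T cell receptor and signalling genes, 3 cytotoxic and NK receptor genes and 9 recruitment genes at an unadjusted p under 0.05. Without Flox replicate 4 the log2 fold changes were 2.49 for Pdcd1, 1.67 for Fyb, 1.20 for Itgb2, 1.15 for Srgn, 0.99 for Cxcl16 and 0.86 for Lag3, each a fold change more than 1.5 times smaller than with all libraries. MHC class I presentation genes, which display peptides to CD8+ cells, had 0 of 12 called in DESeq2 with all libraries and in edgeR with its filter (0 and 5 at an unadjusted p under 0.05), but 6 were called higher with edgeR without its filter and 6 in DESeq2 without Flox replicate 2. Flox replicate 2 lay inside the WT range of the summed level (36421 to 46217 normalized counts) and Flox replicate 4 above it (74736).

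Genes with the most similar pattern to Ccl5 and Cd8a over the 5 libraries were found by the root mean square difference of log2(normalized count + 1), centred on each gene's mean, among 16157 other genes. For Ccl5 these were Cd3e (0.106), Plaur, the urokinase receptor (0.147), Cd84, a SLAM family receptor of leukocytes (0.176), Tyrobp, the adaptor of Trem2 (0.181), and C1qc, a chain of complement C1q (0.194). For Cd8a they were Acod1, the itaconate-producing enzyme of activated macrophages (0.199), Pdcd1 (0.238), Nkg7 (0.305), H2-Aa, a chain of MHC class II (0.353), and Fcgr4, an Fc receptor (0.397). Of these 10 genes, Cd3e and Nkg7 are members, and Plaur, Cd84, Tyrobp, C1qc, Acod1, H2-Aa and Fcgr4 are also or mainly expressed by myeloid cells. The likeness is a description over 5 libraries that share the same contrast. Cd3e had at most 4 counts in each WT library. The members other than Cd3e lay further from Ccl5, from 0.272 for Cxcr6 to 1.29 for Cd3g, which ranked 14370 of the 16157 genes. Cd3g had no count in WT replicate 4, and its difference from Ccl5 lay chiefly there, so its rank rests on that library. The patterns of Ccl5 and Cd8a themselves differed by 0.772, chiefly in WT replicate 4, where Cd8a was lower relative to its mean.

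**Figure D5:**
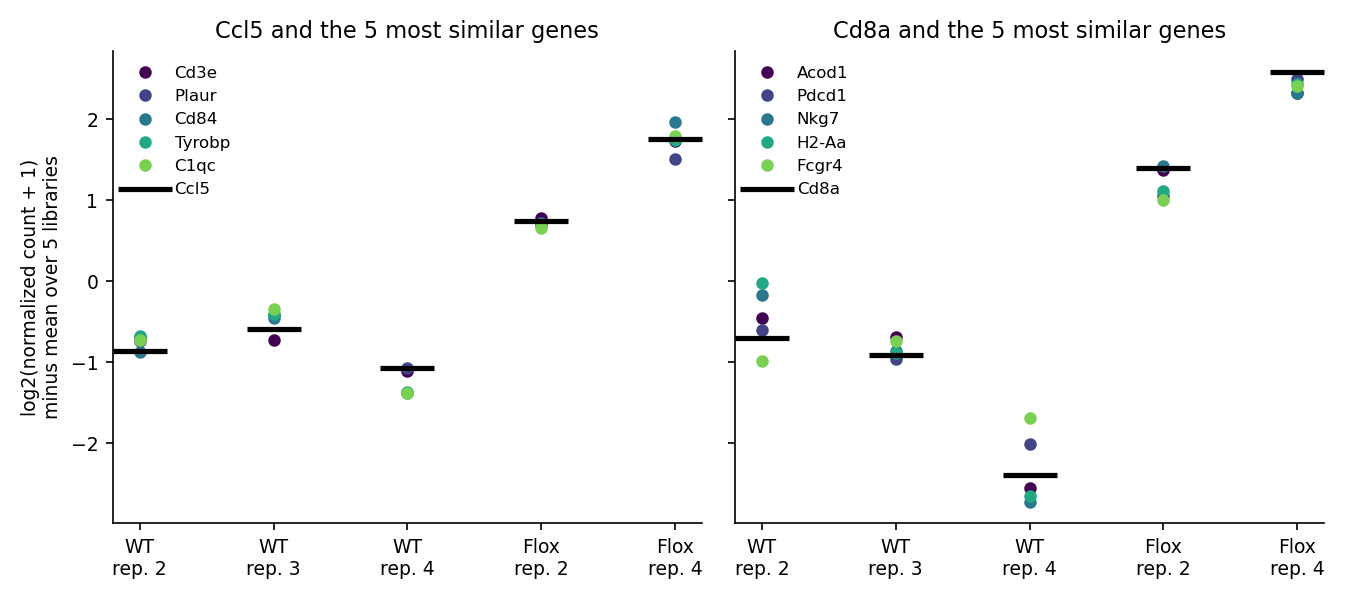
Log2(normalized count + 1) minus the mean over the 5 libraries for Ccl5 (left) and Cd8a (right), drawn as black bars, and for the 5 genes closest to each (points). The points lie near the bars in every library, and Cd8a and its closest genes have their lowest values in WT replicate 4.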

How the data were processed

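Libraries were made from poly(A) RNA without strand information, and the authors used Trim Galore for trimming, STAR for alignment and HTSeq-count for gene counts. The methods name GRCm38 with GENCODE M24, whereas the submitters' processing notes name GRCm39, STAR 2.7.9a and HTSeq 0.11.3, so no coordinates are given for the counted genes. The deposited table holds raw read counts per gene, and 5 summary lines of unassigned reads (ambiguous reads were 5.62% to 5.78%) stayed out of library sizes and tests. Of 53700 IDs, 52093 (97.0%) were named through GENCODE M21, which also gave gene lengths. Without strand, overlapping and antisense genes cannot be separated, and near-identical copies are uncertain. No 2 libraries agreed within counting noise (chi-square per degree of freedom of 4.25 or more). Each library pooled mice, so p-values measure only the spread between these libraries.

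Counts of 29407 genes were fitted with DESeq2 1.42.0 in R 4.3.3 (Wald test, two-sided, independent filtering at 0.05, Benjamini-Hochberg adjustment over all genes). DESeq2 size factors gave the normalized counts. DESeq2 was the first test because the study used it, and edgeR 4.0.16 was an alternative, run with filterByExpr and, as a choice made after seeing the data, without it. Other alternatives were TMM library sizes, a filter on low counts, a replicate block, no independent filtering, no fold-change threshold and leaving out each library. DESeq2 and edgeR fits were tested on simulated data. TPM were computed from counts and gene lengths. Intervals were exact. The members and lists were chosen with earlier results of these data known. Named were the members, listed genes that passed both thresholds (at most 8 per list), Cd4, Prf1, Ncr1, Ccr1, Ccr3, Cxcl16, defining markers, and the 5 nearest profiles among genes with a mean of at least 10 normalized counts. Trac, Cxcl10, Trbc1, Klrb1c, Coro1a, Ptprc, Gata3, Tox, Bcl11b, Gzmm, Klrg1, Eomes, Lat, Klrd1, Tigit and Foxp3 were named after their values were seen. The values of 1 gene of the recruitment list are not reported here.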

Additional observations from a re-analysis of the deposited data

How the results depend on the processing

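Every member had a log2 fold change above 0 under the 10 alternatives that gave one, and the median log2 fold change of the members ran from 2.16 to 2.99 when 1 library was left out. The members were chosen on this contrast, so their direction is not read as a result. The number of genes called in the whole table (500) was 180 with edgeR, 852 with edgeR without its filter (an alternative chosen after seeing the data), 231 with the replicate block, 1297 without a fold-change threshold, and 48 to 897 when 1 library was left out (48 without Flox replicate 4, 212 without WT replicate 4, 266 without WT replicate 2 and 897 without Flox replicate 2). The number of members called (5) was 10 with edgeR without its filter, 1 with the replicate block and 0 to 5 when 1 library was left out. It was 0 without WT replicate 4 and without Flox replicate 4, where DESeq2 gave none of the members an adjusted p and 10 and 4 of them had an unadjusted p under 0.05. Of the T cell receptor and signalling genes 9 were called with edgeR without its filter, and 0 to 4 when 1 library was left out. Of the cytotoxic and NK receptor genes 1 was called with edgeR, 7 without its filter, 0 with the replicate block and 0 to 2 when 1 library was left out. Of the recruitment genes 0 were called with edgeR, 11 without its filter and 1 with the replicate block. This count was 0 to 3 when 1 WT library was left out. Without Flox replicate 4, which left 1 Flox library, what was called in this list was lower in Flox. In each list the count was lowest without Flox replicate 4 or WT replicate 4. Where a group was left with 1 library, that library was assumed to vary like the others. The replicate numbers 2 and 4 occur in both groups but were not taken as pairs. The deviations of same-numbered libraries from their group means correlated at 0.092 (replicate 2) and 0.086 (replicate 4) across 16178 genes, and the blocked fit has few degrees of freedom left. The WT libraries held at most 14 counts of each member other than Ccl5 and Trbc2.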

Other observations

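Lat, a scaffold of T cell receptor signalling, had 5, 2 and 0 counts in WT and 23 and 24 in Flox, and Klrd1, an NK receptor also found on CD8+ cells, had 0, 1 and 1 in WT and 5 and 27 in Flox. Neither had an adjusted p in DESeq2. Tigit, an inhibitory receptor, had 0, 3 and 0 counts in WT and 8 and 13 in Flox. These genes were chosen after their values were seen. Foxp3, which marks regulatory T cells, had 1, 3 and 4 counts in WT and 0 and 2 in Flox, too few for an adjusted p. Its log2 fold change was -1.43 (SE 1.94), and it too was named after its values were seen.

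Of the T cell receptor constant regions, Trac (alpha chain) had 71 to 100 counts in WT and Trbc2 (beta chain) 24 to 30, whereas in Flox Trac had 87 and 103 and Trbc2 67 and 93. In WT replicate 4, where Cd3g and Gzmb had no count and Cd8a had 2, Trac had 100 counts. The difference between Trac and Trbc2 was not tested.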
